A study of Homo sapiens with 24 samples.

Results

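The response to isoginkgetin was measured in HCT116p53-/-, the p53-null subline of the human colorectal carcinoma line HCT116. Isoginkgetin is a biflavonoid of the ginkgo tree, known to inhibit the splicing of pre-mRNA. The 6 arrays of the subline, of 12 in the series, were taken by their titles. Cells had received isoginkgetin at 30 µM for 8 h, its vehicle DMSO for 8 h, or neither for 8 h, and each of these groups held 2 arrays from independent biological experiments. All 3 groups carry the loss of p53, so that a comparison among them shows nothing about p53. The sources used here do not say whether the subline is 1 clone. The other 6 arrays, labelled HCT116, had the same treatments and serve only as a point of comparison.

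RNA was hybridised to Human Transcriptome Array 2.0 arrays, on which each gene has several exon probe sets ("exon rows" here) and probe sets that span exon junctions ("junction rows"). The level of a gene is the mean log2 value of its exon rows, available for 18613 genes with 1 symbol and at least 3 such rows (median 16 rows). The response is isoginkgetin minus DMSO within a replicate number, and a gene is called higher or lower where limma, with the replicate number as a block, gave an adjusted p under 0.05. On the p53-null arrays the epithelial markers EPCAM and KRT8 had mean levels of 12.16 and 14.36 log2, while the intestinal markers VIL1, CDX2, KRT20, TSPAN8 and LGALS4 lay between 3.15 and 5.17. The 9 fibroblast markers had mean levels between 3.12 and 4.39 log2, and the 5 markers of endothelium and leukocytes between 3.00 and 3.56. No marker of these other cell types was called. Medians of the gene levels on these 6 arrays ran from 5.11 to 5.32 log2. Arrays have no read depth, and their number limits the precision of every value.

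Cells that run short of amino acids or accumulate unfolded proteins in the endoplasmic reticulum (ER) phosphorylate the initiation factor eIF2, which slows translation in general while the transcription factor ATF4 is made. ATF4 and its partners then switch on genes of amino acid synthesis and transport, a programme known as the integrated stress response. Unfolded proteins in the ER also activate ATF6 and XBP1, which raise chaperones and the machinery of ER-associated degradation. Zinc and other metals activate MTF1, which raises metallothioneins and the zinc exporter SLC30A1.

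Promoter sequences of genes that rose are shown first because each of these transcription factors has a known DNA element. Windows from 250 bases before to 50 after the start were taken from RefSeq (GRCh38.p14), a stretch around the match is printed on the strand of the gene, and bases matching the element on either strand are in capitals. The ATF4 element, searched as TGATGNAAN, is shown for CHAC1 (chr15:40953231-40953299, plus strand, matched on the opposite strand) and ASNS (chr7:97872438-97872506, minus strand), the members of the stress response lists with the largest rises among those that hold it.
CHAC1: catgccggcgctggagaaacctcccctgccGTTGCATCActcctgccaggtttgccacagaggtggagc
ASNS: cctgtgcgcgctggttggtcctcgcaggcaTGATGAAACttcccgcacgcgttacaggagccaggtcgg
The ER stress element, searched as CCAAT, 9 bases of any kind and CCACG, is shown for XBP1 (chr22:28800573-28800651, minus strand) and HSPA5 (chr9:125241361-125241439, minus strand).
XBP1: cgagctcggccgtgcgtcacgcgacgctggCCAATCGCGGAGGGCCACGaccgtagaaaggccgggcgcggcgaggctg
HSPA5: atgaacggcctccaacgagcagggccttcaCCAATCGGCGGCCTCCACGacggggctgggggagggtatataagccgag
The metal response element, searched as TGCACNC or TGCGCNC, is shown for SLC30A1 (chr1:211579174-211579240, minus strand, matched on the opposite strand) and MT1X (chr16:56682290-56682453, plus strand), where it occurs 4 times.
SLC30A1: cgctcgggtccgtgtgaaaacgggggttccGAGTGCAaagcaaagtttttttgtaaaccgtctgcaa
MT1X: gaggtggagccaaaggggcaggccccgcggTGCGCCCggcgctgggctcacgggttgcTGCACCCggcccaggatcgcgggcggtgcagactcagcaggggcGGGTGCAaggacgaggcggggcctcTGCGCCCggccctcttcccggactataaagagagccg
Among genes called higher, 19 of 175 with a window held the ATF4 element in it (10.9%), against 6 of 171 genes called lower (3.51%) and 3.52% of all tested genes with a window. It stood in 3.61% of all 35116 windows in the table. Of 45 stress response list members with a window 12 held it, and of the 12 with a window that rose 5 did: CHAC1, ASNS, ATF3, JDP2 and SLC3A2. SLC7A11 and PYCR1 rose but had no window. The ER stress element stood in 3 of 175 genes called higher, in 0 of 171 genes called lower, in 0.138% of tested genes with a window and in 0.0769% of all windows. Of the ER list members searched 8 of 33 held it, and of those that rose 2 of 14, the printed XBP1 and HSPA5. The short metal response element stood in 39.4% and 44.4% of genes called higher and lower, and in 29.6% of all windows and 41.5% of tested genes. It stood in 16 of the 24 metal-handling list members with a window. Of the 8 members that rose 5 had a window, and 3 of these held it, SLC30A1, MT1X and MT2A. MT1F, MT1E and MT1M rose but had no window. These matches describe letters in a window and were not tested.

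After 8 h of isoginkgetin, 443 of 18613 genes were called in the p53-null cells, 228 higher (1.22%) and 215 lower (1.16%), or 2.38% in all. The share called rose with level, from 0.107% of the 6553 genes at or below 4 log2 to 5.50% of the 1709 above 10 log2. The shares of all genes that stand beside gene lists below are not matched for level, so they are low for lists of well-expressed genes. Of the called genes 16 changed at least 2-fold (0.086% of all genes), and each of these rose. The largest rise was 7.67-fold (CHAC1), and the largest fall was 1.95-fold (SOX4). Genes called higher had a median response of 0.34 log2 and genes called lower of -0.32. The gene lists described below were chosen with earlier results of these data known. Their counts and medians therefore describe the listed genes and do not test whether a pathway rose or fell. DMSO against untreated called 0 genes (0.0%) in the same limma fit, with 1404 genes at an unadjusted p under 0.05, where isoginkgetin against DMSO had 3268.

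Both experiments gave the response, with different size. Across all 18613 genes the responses of replicates 1 and 2 correlated at r = 0.600, and at 0.720 among the 1709 genes above 10 log2 but 0.0631 among the 6553 genes at or below 4 log2. Genes are not independent replicates, and the points share their arrays. Among genes called higher, 167 of 228 responded more strongly in replicate 1, as did 114 of 215 genes called lower. The plot of both replicates shows the largest rises below the line of equal response.

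**Figure D1:**
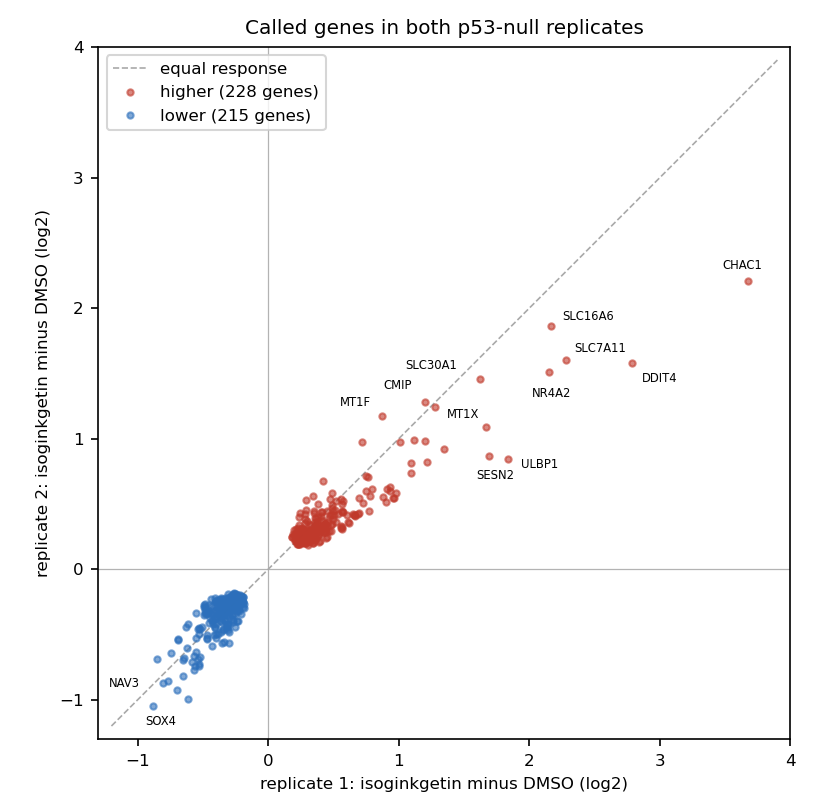
Response of the 443 called genes in replicate 1 (horizontal axis) and replicate 2 (vertical axis), both isoginkgetin minus DMSO in log2, with genes called higher in red, genes called lower in blue and the dashed line at equal responses. CHAC1 stands apart at 3.67 in replicate 1 and 2.21 in replicate 2, and no called gene changed sign between the replicates. The genes were called on these same differences, so their shared sign is largely set by the call and is no evidence of replication.

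These calls rest on the comparison within replicate numbers: without the block, limma called 0 genes, with 179 at an unadjusted p under 0.05. Fits that left out 1 of the 6 arrays called between 32 (without isoginkgetin replicate 1) and 355 genes (without DMSO replicate 2), against 132, 137, 137 and 152 without DMSO replicate 1, untreated replicate 1, untreated replicate 2 and isoginkgetin replicate 2. For isoginkgetin against DMSO, leaving out untreated replicate 1 or untreated replicate 2 gave the same fit, because the block leaves no spread to a lone untreated array. The 6 fits also share arrays, so they are not 6 separate checks. In both replicates many exon rows had exactly the same value in isoginkgetin and DMSO (36.5% in replicate 1 and 34.1% in replicate 2), against 0.00279% between the isoginkgetin arrays of replicates 1 and 2. What made the values equal, and its part in the spread that the test uses, was not tested.

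CHAC1 and DDIT4, both known to be induced by ATF4, had the largest rises. CHAC1, which degrades glutathione and holds the ATF4 element in its window, had 8.66 and 7.55 log2 in isoginkgetin-treated cells, against 4.99 and 5.34 in DMSO-treated and 5.19 and 5.35 in untreated cells. The treated arrays stood above all 4 control arrays, by 3.67 and 2.21 over DMSO of the same number (mean 2.94, SD 1.04, n = 2, limma adjusted p = 0.0192). DDIT4, an inhibitor of the kinase complex mTORC1, had 8.41 and 9.04 log2 with isoginkgetin, against 5.63 and 7.46 with DMSO and 5.69 and 7.56 untreated. Its replicates began at different levels, and the rise was 2.78 and 1.58 (4.53-fold on average, adjusted p = 0.0284). SESN2, a sestrin that also restrains mTORC1, had 7.46 and 7.02 log2 with isoginkgetin, against 5.77 and 6.15 with DMSO (mean rise 1.28, adjusted p = 0.0403). These were the 2 of 8 mTORC1 inhibitors called higher, where 1.22% of all genes were. The other 6 ranged from -0.09 to 0.07. Of 9 genes of cystine and glutathione handling CHAC1 alone was called (the cystine importer SLC7A11 is counted with the transporters), and GCLC and GCLM, the subunits of the enzyme that starts glutathione synthesis, had responses of -0.06 and -0.01. Of these calls, limma fits that left out 1 array lost CHAC1 without either untreated array (0.0509), DDIT4 without DMSO replicate 1 (0.0748) or either untreated array (0.0549), SESN2 without DMSO replicate 1 (0.112) or either untreated array (0.0711) (adjusted p in brackets).

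**Figure D2:**
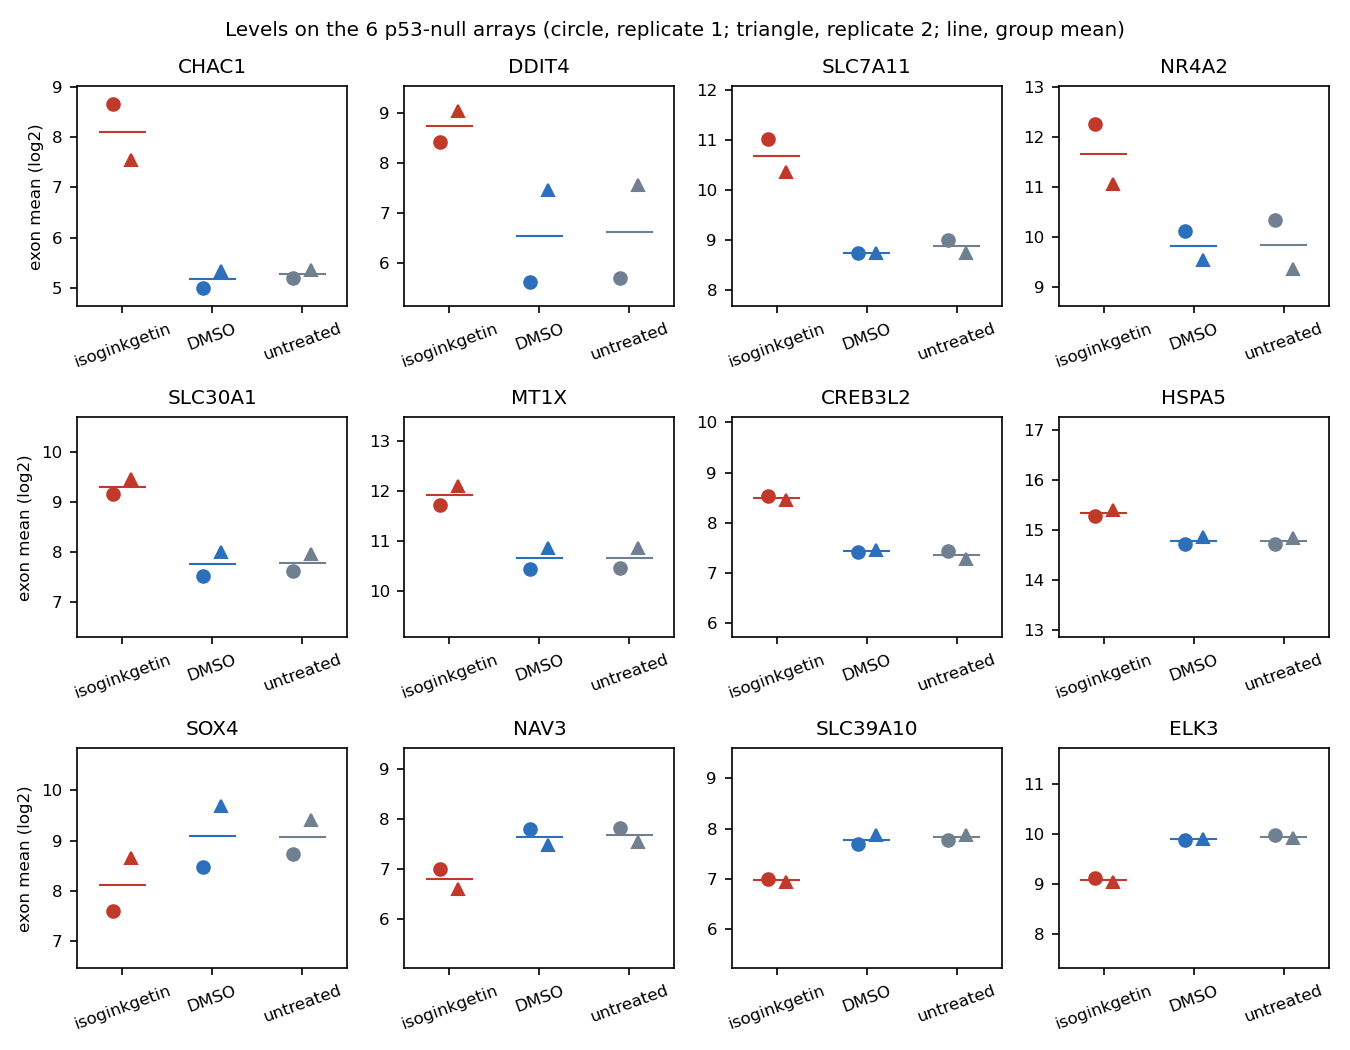
Level of 12 genes on each p53-null array (vertical axis, mean log2 value of the gene's exon rows; every panel spans the same range), by treatment, with circles for replicate 1, triangles for replicate 2 and lines at group means. In the upper 8 panels both isoginkgetin arrays lie above the DMSO arrays of the same replicate, as for SLC7A11 at 11.01 and 10.35 against 8.73 and 8.75, and in the lower 4 panels they lie below, as for ELK3 at 9.11 and 9.05 against 9.87 and 9.90.

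Of 10 transcription factors of the integrated stress response, 4 were called higher and 0 lower, against 1.22% and 1.16% of all genes, and the median response of the list was 0.29 log2, against 0.01 over all genes. ATF4 had 11.38 and 11.26 log2 with isoginkgetin, against 10.50 and 10.71 with DMSO (mean 0.72, adjusted p = 0.0177). DDIT3, which encodes CHOP, had 5.87 and 5.98, against 5.11 and 5.28 (mean 0.73, adjusted p = 0.0119). Of the other 2, ATF3, a target of ATF4, rose by 0.50 and 0.39 in replicates 1 and 2 and JDP2, a dimer partner of AP-1 factors, by 0.31 and 0.29. TRIB3, a pseudokinase induced by ATF4 and CHOP, had 0.65 with an adjusted p of 0.0541, and the partners CEBPG and CEBPB had 0.29 and 0.18, none of them called. Of the 10 kinases, eIF2 subunits and phosphatase subunits upstream, EIF2AK3, the ER kinase PERK, rose by 0.54 and DNAJC3, an inhibitor of that kinase, by 0.47. The other 8 were not called, with EIF2AK1, EIF2AK2 and EIF2AK4, which sense haem loss, viral RNA and amino acid shortage, at 0.05, -0.06 and -0.10. The count of transcription factors called was 0 without isoginkgetin replicate 1, 2 without either untreated array, and the fits lost ATF4 without isoginkgetin replicate 1 (0.0686) or either untreated array (0.0509), DDIT3 without isoginkgetin replicate 1 (0.0845), ATF3 without isoginkgetin replicate 1 (0.0893), EIF2AK3 without isoginkgetin replicate 1 (0.102) or either untreated array (0.0524), DNAJC3 without isoginkgetin replicate 1 (0.103) or isoginkgetin replicate 2 (0.0725). JDP2 was lost in all 6 fits (0.0524 to 0.166).

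Genes of amino acid transport and synthesis were among those that rose. SLC7A11, the cystine importer, rose most among 14 amino acid transporters, to 11.01 and 10.35 log2 with isoginkgetin, against 8.73 and 8.75 with DMSO and 8.99 and 8.75 untreated (3.84-fold, SD 0.48 log2, adjusted p = 0.00855). All 16 of its exon rows were higher in both replicates. Its partner chain SLC3A2 rose by 0.21 and the glycine transporter SLC6A9 by 0.29, and no transporter of the list was called lower. SLC38A2 and SLC7A5, carriers of neutral amino acids, had 0.05 and 0.24 and were not called. Among 15 enzymes of serine, asparagine, proline and folate metabolism 4 rose and 0 fell. Of all genes 1.22% were called higher and 1.16% lower. ASNS, asparagine synthetase, had 8.59 and 8.38 log2 with isoginkgetin, against 7.37 and 7.56 with DMSO (2.03-fold, adjusted p = 0.0165), and PSAT1, an enzyme of serine synthesis, had 14.13 and 14.07, against 13.04 and 13.33 (1.89-fold, adjusted p = 0.0119). In both genes the treated arrays stood above every control array. MTHFD2, a mitochondrial folate enzyme, rose by 0.32 and PYCR1, which makes proline, by 0.22. SLC7A11, ASNS and PSAT1 were called in all 6 fits that left out an array; SLC3A2, SLC6A9, MTHFD2 and PYCR1 were called in none of these (adjusted p 0.0502 to 0.274).

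Aminoacyl-tRNA synthetases, which load tRNAs with amino acids, were listed by compartment. Among the 19 cytosolic synthetases 5 rose and 0 fell (median response 0.20), and of 15 mitochondrial ones 0 were called (median 0.01). Of all genes 1.22% were called higher and 1.16% lower. AARS1 had 12.41 and 12.66 log2 with isoginkgetin, against 11.62 and 12.05 with DMSO (mean 0.70, adjusted p = 0.00855), and CARS1 had 7.66 and 7.94, against 7.01 and 7.51 (mean 0.54, adjusted p = 0.0177). WARS1, YARS1 and MARS1 rose by 0.44, 0.36 and 0.28. The other 14 cytosolic enzymes ranged from -0.06 to 0.31. The difference between the lists was not tested. The count of cytosolic enzymes called was 1 without isoginkgetin replicate 1 or either untreated array, 2 without DMSO replicate 1, 3 without isoginkgetin replicate 2 or DMSO replicate 2, and AARS1 was called in every one of these fits.

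Genes of the ER and its exit route were also among those that rose. XBP1, the transcription factor spliced by IRE1, had 7.84 and 8.23 log2 with isoginkgetin, against 6.90 and 7.61 with DMSO (mean 0.78, adjusted p = 0.0119). CREB3L2, a membrane-bound transcription factor of the ER, had 8.53 and 8.44, against 7.41 and 7.45 (2.08-fold, SD 0.09 log2, adjusted p = 0.00245), and HERPUD1, a scaffold of ER-associated degradation, had 10.45 and 10.52, against 9.35 and 9.71 (1.94-fold). In all 3 genes both isoginkgetin arrays stood above both DMSO arrays. CREB3L2 and HERPUD1 were called in all 6 fits that left out an array, and XBP1 lost its call without isoginkgetin replicate 1 (adjusted p = 0.0592). In the list of 18 ER stress sensors and degradation genes 9 rose and 0 fell (median 0.17), where 1.22% and 1.16% of all genes did. EIF2AK3 and the ubiquitin ligase parts SEL1L and SYVN1 rose by 0.54, 0.44 and 0.41, DERL2 and SELENOS, which extract substrates, by 0.29 and 0.22, and XPOT, which exports tRNA from the nucleus and is not an ER protein, by 0.33. Every fit that left out 1 array called fewer genes of this list, with the largest loss without isoginkgetin replicate 1.

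HSPA5, the main ER chaperone, with an ER stress element in its window, had 15.28 and 15.40 log2 with isoginkgetin, against 14.72 and 14.86 with DMSO and 14.73 and 14.84 untreated. Its rise of 0.56 and 0.54 was nearly equal in the replicates (1.46-fold, SD 0.02 log2, adjusted p = 0.00679). HYOU1, a partner chaperone, rose by 0.51, DNAJC3 by 0.47, DNAJB9, a cofactor of HSPA5, by 0.44, and PDIA4, a disulfide isomerase, by 0.32, so that 5 of 17 chaperones and folding enzymes rose and 0 fell. The chaperone CALR and the oxidase ERO1A had 0.15 and -0.01 and were not called. Of 13 genes listed for ER export and transport 8 rose and 0 fell (median 0.27). Beside the counts of both lists, 1.22% of all genes were called higher and 1.16% lower. SEC24D, a coat protein of vesicles that leave the ER, had 7.66 and 7.69 log2 with isoginkgetin, against 7.14 and 7.16 with DMSO (mean 0.52, SD 0.0039, adjusted p = 0.00813). SEC63 and SSR1, at the translocation channel, rose by 0.39 and 0.35, and SRPRB, a receptor subunit for the signal recognition particle, by 0.39. SLC33A1, the acetyl-CoA carrier of the ER membrane, rose by 0.77 and GPCPD1, a phosphodiesterase of glycerophosphocholine, by 0.54. Neither is a coat or channel protein, though both count among the 8. Every fit that left out 1 array called fewer genes of both lists. Without isoginkgetin replicate 1 neither list kept a call, and HSPA5 and SEC24D were among those lost.

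**Figure D3:**
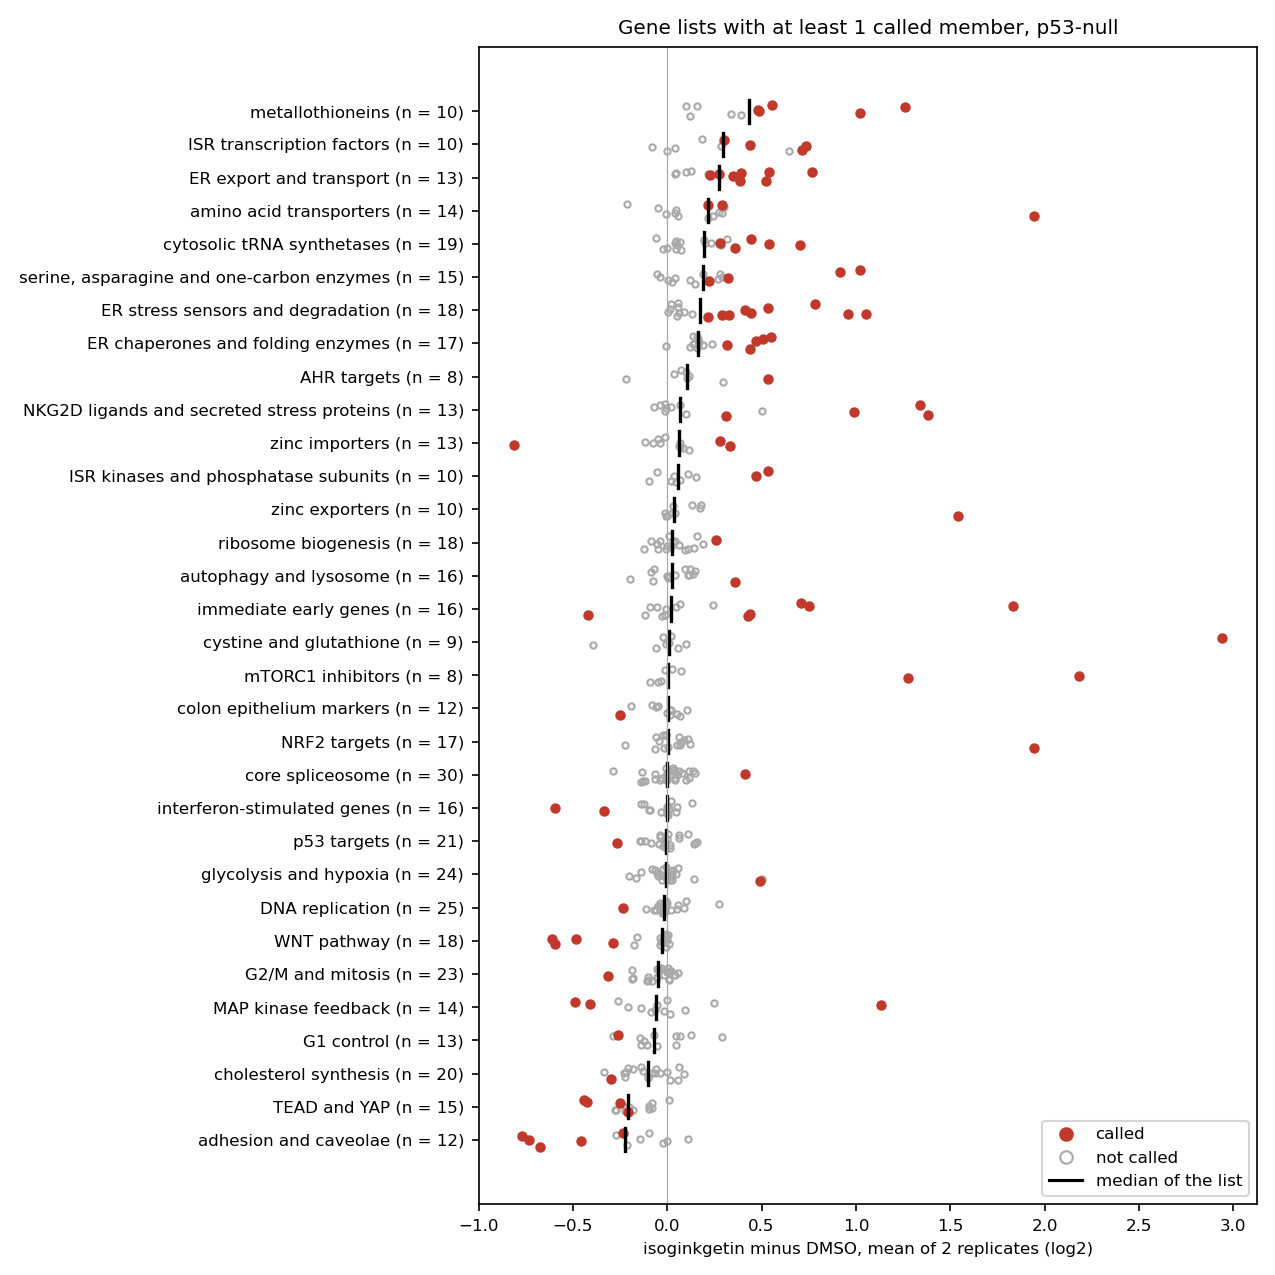
Mean response of each member of the gene lists with at least 1 called member (horizontal axis, isoginkgetin minus DMSO in log2, mean of 2 replicates), with filled points for called members, open points for the others and bars at list medians. Metallothioneins have the highest median (0.44) and adhesion and caveolae genes the lowest (-0.22), and in several lists, such as zinc exporters, 1 member lies far from the rest.

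Metal-handling genes formed a group with responses in both directions. SLC30A1, which carries zinc out of the cytosol and has a metal response element in its window, had 9.15 and 9.46 log2 with isoginkgetin, against 7.52 and 8.00 with DMSO and 7.62 and 7.95 untreated (2.91-fold, SD 0.12 log2, adjusted p = 0.000989). Of 10 zinc exporters it alone was called, and the other 9 ranged from -0.01 to 0.18. Beside the counts of zinc exporters and importers, 1.22% of all genes were called higher and 1.16% lower. SLC39A10, which takes zinc up across the plasma membrane, had 6.99 and 6.94 with isoginkgetin, against 7.69 and 7.87 with DMSO (mean -0.81, adjusted p = 0.00855). Among the other 12 zinc importers SLC39A7, which releases zinc from the ER and Golgi, rose by 0.33 and SLC39A11 by 0.28. Both genes lost their call in each fit that left out an array (adjusted p 0.0586 to 0.131), while SLC30A1 and SLC39A10 kept theirs in all 6.

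Metallothioneins, small proteins that bind zinc and copper, had positive responses in 10 of 10 genes, and 5 were called higher (median 0.44). Among all 18613 genes 9926 had positive responses and 1.22% were called higher. MT1X had 11.72 and 12.11 log2 with isoginkgetin, against 10.45 and 10.87 with DMSO (2.39-fold, SD 0.03 log2, adjusted p = 0.000725), and MT1F had 11.22 and 11.76, against 10.35 and 10.59 (2.03-fold, adjusted p = 0.00855). MT2A rose by 0.56, MT1E by 0.48 and MT1M by 0.48. Metallothionein genes closely resemble each other, a probe can bind RNA of several of them, and which members rose is uncertain. MT1X and MT1F were called in all 6 fits that left out an array, and the count of the list was 2 without isoginkgetin replicate 1. Heat shock genes, which answer unfolded proteins in the cytosol, had 0 of 14 called (median -0.02), and of 17 targets of the oxidative stress factor NRF2 SLC7A11 alone was called; HMOX1, NQO1 and TXNRD1 had -0.04, 0.08 and -0.01.

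Further large rises belonged to signalling and secreted proteins. NR4A2, a nuclear receptor induced early by many stimuli, had 12.27 and 11.06 log2 with isoginkgetin, against 10.11 and 9.55 with DMSO and 10.33 and 9.36 untreated (3.56-fold, adjusted p = 0.00855). NR4A1 and NR4A3 rose too, by 0.71 and 0.75. Of the 16 immediate early genes 5 were called higher and 1 lower, where 1.22% and 1.16% of all genes were. Among them ATF3 and KLF4 rose by 0.44 and 0.43 while KLF6 fell by 0.42. FOS, FOSB, JUN and EGR1, the classical members, had -0.06, -0.01, -0.01 and 0.04 and were not called. DUSP4, a phosphatase of MAP kinases, had 10.83 and 10.53, against 9.48 and 9.61 (2.2-fold, adjusted p = 0.0112). DUSP6 and DUSP5, which act on ERK, moved the other way, by -0.49 and -0.41, and the other 11 of 14 feedback genes were not called. The same shares of all genes stand beside the feedback list. NR4A2 and DUSP4 were called in all 6 fits that left out an array; the count of immediate early genes was 1 without isoginkgetin replicate 1, and that of feedback genes 1 without isoginkgetin replicate 1.

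SLC16A6, a transporter of ketone bodies and taurine, had 8.54 and 8.98 log2 with isoginkgetin, against 6.37 and 7.12 with DMSO and 6.81 and 7.17 untreated (4.04-fold, SD 0.22 log2, adjusted p = 0.00245). STC2, a secreted glycoprotein induced by ER stress, had 8.42 and 7.57, against 6.75 and 6.48 (2.6-fold), and SCG2, a protein of secretory granules, had 7.19 and 7.57, against 6.18 and 6.59 (1.99-fold). ULBP1, a ligand of the receptor NKG2D on natural killer cells, had 8.86 and 8.37, against 7.02 and 7.52 (mean 1.34, SD 0.70, adjusted p = 0.0417). In each of these genes the treated array was the highest of its replicate. The related ligand ULBP2 rose by 0.31, whereas MICA and MICB, on the same receptor, had -0.04 and -0.01. CMIP, an adaptor protein, rose 2.37-fold (1.20 and 1.28 log2 in replicates 1 and 2, adjusted p = 0.00133), FGFBP1, which binds fibroblast growth factors, 2.13-fold, and GRAMD1B, which carries cholesterol from the plasma membrane to the ER, 1.8-fold. Of these genes, the fits without 1 array lost STC2 without DMSO replicate 1 (0.0589), ULBP1 without isoginkgetin replicate 1 (0.0851), DMSO replicate 1 (0.0748) or either untreated array (0.0895), ULBP2 without isoginkgetin replicate 1 (0.201), isoginkgetin replicate 2 (0.0828), DMSO replicate 1 (0.112) or either untreated array (0.0698), FGFBP1 without isoginkgetin replicate 1 (0.0908) or isoginkgetin replicate 2 (0.0566).

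The falls were led by a transcription factor. SOX4, which acts in development, had 7.60 and 8.65 log2 with isoginkgetin, against 8.48 and 9.69 with DMSO and 8.74 and 9.40 untreated. Among isoginkgetin and among DMSO arrays the replicates differed by more than the fall (mean -0.97, SD 0.12, adjusted p = 0.0261), and isoginkgetin replicate 2 was above DMSO replicate 1. NAV3, a microtubule-associated protein, had 7.00 and 6.61, against 7.80 and 7.48 (1.79-fold lower, adjusted p = 0.00245), and 41 of its 45 exon rows fell in both replicates. ELK3, an ETS factor downstream of RAS signalling, had 9.11 and 9.05, against 9.87 and 9.90 (1.75-fold lower, SD 0.06 log2, adjusted p = 0.00245). SMURF2, a ubiquitin ligase that restrains TGF-beta signalling, had 13.28 and 13.50, against 13.93 and 14.18, and SFN, an epithelial adaptor of cell cycle checkpoints, 13.91 and 14.17, against 14.44 and 14.89 (mean -0.66 and -0.62). UCA1, a long non-coding RNA of carcinomas, fell by 0.67. SPTSSB, a subunit of serine palmitoyltransferase, fell by 0.80, and the transcription regulators ARID5B, VEZF1, NR2F1 and ZNF827 fell by 0.65, 0.62, 0.61 and 0.61. MYEOV, SAMD9, SH3RF2 and TRIML2 completed the 20 largest falls, at -0.69, -0.65, -0.64 and -0.62. The fits without 1 array lost SOX4 without isoginkgetin replicate 1 (0.164) or isoginkgetin replicate 2 (0.0808), SPTSSB without isoginkgetin replicate 1 (0.13), isoginkgetin replicate 2 (0.103) or either untreated array (0.0509), MYEOV without isoginkgetin replicate 1 (0.0576), ARID5B without isoginkgetin replicate 1 (0.252), isoginkgetin replicate 2 (0.111) or DMSO replicate 2 (0.0667), VEZF1 without isoginkgetin replicate 1 (0.0851), NR2F1 without isoginkgetin replicate 1 (0.0686), ZNF827 without isoginkgetin replicate 1 (0.116).

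Genes of cell adhesion were among those that fell. Of 12 adhesion and caveolae genes 5 were called lower and 0 higher (median -0.22), where 1.16% and 1.22% of all genes were. The same shares stand beside the lists that follow in this paragraph. EMP1, an epithelial membrane protein, had 11.45 and 11.65 log2 with isoginkgetin, against 12.30 and 12.34 with DMSO (mean -0.77, adjusted p = 0.00676), and ITGA2, a collagen-binding integrin, had 8.50 and 8.82, against 9.15 and 9.64 (mean -0.74, adjusted p = 0.0128). CAVIN1 and CAV1, which build the caveolar coat, fell by 0.67 and 0.46, and the laminin receptor ITGA6 by 0.24. The hyaluronan receptor CD44 and the integrin subunit ITGB1 had 0.11 and 0.00 and were not called. Of 15 genes around the factors TEAD and YAP, which read cell contacts, 4 fell and 0 rose (median -0.21): AJUBA by 0.44, TEAD2 by 0.43, the kinase LATS2 by 0.25 and YAP1 by 0.21. With quantile scaling 2 genes of this list were called. The targets CCN1, CCN2 and ANKRD1 had -0.22, -0.18 and -0.08 and were not called. In the WNT list 4 of 18 genes fell and 0 rose. AXIN2, a target and inhibitor of the pathway, had 6.04 and 6.30, against 6.57 and 6.99 (mean -0.61, adjusted p = 0.00855). DACT1, an antagonist, fell by 0.60, and the pathway's DNA-binding factors TCF7L2 and TCF7L1 by 0.48 and 0.29. EMP1, CAVIN1 and AXIN2 were called in all 6 fits that left out an array. Each of these fits called fewer genes of the adhesion list, of the TEAD and YAP list and of the WNT list. The largest losses came without isoginkgetin replicate 1, where no TEAD or YAP gene kept its call. For adhesion genes the loss without isoginkgetin replicate 2 was as large.

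Of 21 listed targets of p53, 1 was called, where 2.38% of all genes were. Called genes described above that are also known as p53 targets, such as SFN and SESN2, are not in this list. CDKN1A, the cell cycle inhibitor, had 6.91 and 7.31 log2 with isoginkgetin, against 6.97 and 7.53 with DMSO and 6.95 and 7.41 untreated, and MDM2, the ubiquitin ligase of p53, had 10.92 and 10.98 with isoginkgetin, against 10.74 and 10.88 with DMSO and 10.77 and 10.86 untreated. Neither was called (responses -0.14 and 0.14, adjusted p = 0.207 and 0.131), and the CDKN1A levels of isoginkgetin and DMSO overlapped. The called member of the list was TP53INP1, at -0.27, and the list median was -0.01. None of 15 apoptosis regulators was called, with the BH3-only genes BBC3, PMAIP1 and BCL2L11 at 0.06, 0.00 and 0.07. Among 13 genes of G1 control, 25 of DNA replication and 23 of mitosis, 1 was called lower in each list, CDKN2C (-0.26), CHAF1B (-0.24) and CENPE (-0.32). MYC and CCND1 had 0.29 and -0.11 and were not called. TP53INP1, CHAF1B and CDKN2C lost their calls in all 6 fits that left out an array (adjusted p 0.0601 to 0.219), and the fits lost CENPE without isoginkgetin replicate 1 (0.228), isoginkgetin replicate 2 (0.0604), DMSO replicate 1 (0.161) or either untreated array (0.0948). CHAF1B lost its call under quantile scaling as well.

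The remaining lists held 0 to 2 called genes each, where 2.38% of all genes were called, and nothing is read from such counts. Of 30 core spliceosome genes PRPF4, of the small nuclear ribonucleoproteins, alone was called (response 0.41, adjusted p = 0.0192), and SF3B1 had 0.00. None of 24 SR protein, hnRNP and splicing kinase genes and none of 27 proteasome genes was called, with list medians of 0.00 and 0.02 log2. Of 18 ribosome biogenesis genes NOLC1 rose by 0.26, of 24 glycolysis and hypoxia genes the glucose transporter SLC2A1 by 0.49, and of 16 autophagy and lysosome genes the phosphoinositide-binding protein WIPI1 by 0.36. IDI1, an isomerase of isoprenoid synthesis, fell by 0.30 among 20 cholesterol genes, 16 of which had negative responses (median -0.10). RIGI, a sensor of viral RNA, and IFIT1 fell by 0.59 and 0.33 among 16 interferon-stimulated genes, and CYP1A1 rose by 0.54 among 8 targets of the aryl hydrocarbon receptor. KRT19, a keratin, fell by 0.25 among the 12 colon markers, and the other 11 were not called. Except for TEAD and YAP, no count of a list given above moved by more than 1 under quantile scaling or centring of arrays. KRT19 lost its call with quantile scaling. IDI1 reached 0.0146 with the median of its exon rows, and IFIT1 0.342 on its junction rows, against the direction above. IDI1, KRT19 and NOLC1 lost their calls in all 6 fits that left out an array (adjusted p 0.0531 to 0.286), and the fits lost PRPF4 without isoginkgetin replicate 1 (0.13), isoginkgetin replicate 2 (0.0725) or DMSO replicate 1 (0.0573), SLC2A1 without isoginkgetin replicate 1 (0.102), DMSO replicate 1 (0.0748) or either untreated array (0.0636), WIPI1 without isoginkgetin replicate 1 (0.121), isoginkgetin replicate 2 (0.0978) or DMSO replicate 1 (0.0937), RIGI without isoginkgetin replicate 1 (0.102) or isoginkgetin replicate 2 (0.0573), IFIT1 without isoginkgetin replicate 1 (0.168), isoginkgetin replicate 2 (0.0811), DMSO replicate 1 (0.0937) or either untreated array (0.056), CYP1A1 without isoginkgetin replicate 1 (0.0617).

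The exon rows of a gene did not move alike. Among the 7 of 10 exon rows of CHAC1 that reached 6 log2 on any of the 6 arrays, a bound chosen after the values were seen, the median response was 5.91 in replicate 1 and 3.30 in replicate 2. The bound counts the treated arrays, so a row that rose could reach it through its rise, and these medians describe rows selected in that way. The highest row moved by 7.23 and 4.77, and the lowest by 0.00 and -0.06. DDIT4 had medians of 3.89 and 2.02 over 8 such rows of 11, with lowest values of 0.25 and 1.15. In CMIP 24 of 30 rows reached the bound, and every one of them rose in both replicates (medians 1.45 and 1.58). SLC39A10 fell with medians of -1.25 and -1.54 over 17 of 28 rows, and the highest responses among these rows were 0.03 and -0.05. With the median over all exon rows in place of the mean, limma called 0 genes, with 1715 at an unadjusted p under 0.05.

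**Figure D4:**
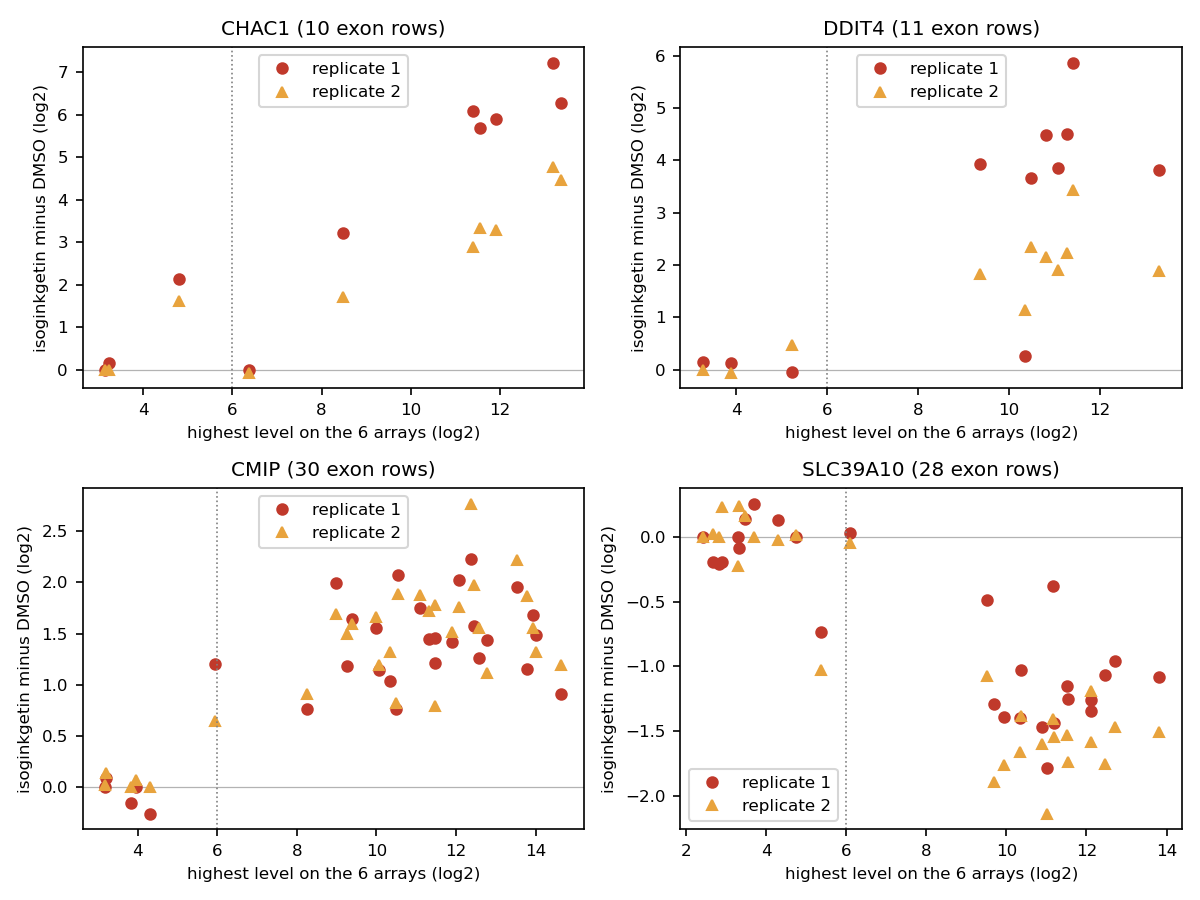
Response of each exon row of CHAC1, DDIT4, CMIP and SLC39A10 (vertical axis, isoginkgetin minus DMSO in log2) against the highest level of that row on the 6 p53-null arrays (horizontal axis, log2), with circles for replicate 1, triangles for replicate 2 and a dotted line at 6 log2. Rows left of the line lie near 0 with few exceptions, and in CHAC1 and DDIT4 most rows right of it are higher in replicate 1 than in replicate 2.

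Junction rows, whose probes span 2 joined exons, gave the same direction for most genes. Of 413 called genes with at least 3 junction rows, 407 had a junction mean of the same sign. These rows come from the same arrays as the calls and are no independent evidence. The share of all genes with the same sign is not given here. With limma on junction means, 17 of 16732 genes passed (0.102%), 15 higher (0.0896%) and 2 lower (0.012%), and 14 of these were called on exon rows as well, each in the same direction. SLC7A11 rose by 1.80 and 1.70 on its junction rows (adjusted p = 0.00447), SLC16A6 by 2.10 and 1.77 and CMIP by 1.47 and 1.49, whereas CHAC1, at 3.34 and 1.62, was not called (adjusted p = 0.106). Junction means were set against exon means of the same gene over 16716 genes. The median shift of junction minus exon rows, isoginkgetin minus DMSO, was 0.0316 in replicate 1 and 0.00546 in replicate 2, with 57.9% and 51.7% of genes above 0. For DMSO minus untreated, which shares the DMSO arrays, it was -0.0223 and -0.0176. With untreated in place of DMSO the shift was 0.00776 and -0.00908, so that no direction was shared by the replicates, and with quantile scaling it was 0.00617 and 0.00058. With 2 replicates no exact test of this value can pass 0.05, and none was made.

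The untreated arrays gave a second reference that shares the isoginkgetin arrays with the comparison above. Isoginkgetin against untreated called 399 genes (2.14%), 136 higher (0.731%) and 263 lower (1.41%), and SLC7A11, SLC30A1 and ELK3 had 1.81, 1.52 and -0.86, beside 1.94, 1.54 and -0.81 against DMSO.  The gene-level values were a check that comes from the same arrays and is no independent evidence. Of 427 called genes that have such a value, 387 had a response of the same sign, 40 had exactly 0 and 0 had the opposite sign. In that table, 87.1% and 86.7% of all rows held equal values in isoginkgetin and DMSO of replicates 1 and 2, and limma called 6 of 22411 genes (0.0268%), 2 higher (0.00892%) and 4 lower (0.0178%). In that fit 17985 of the 22411 genes had no measurable residual spread, so nothing is read from its count.

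The arrays labelled HCT116 allow the response to be set beside that of cells with p53, with a limit. The arrays of replicate 1 lack epithelial markers (EPCAM at 4.62, 4.61 and 4.63 log2 with isoginkgetin, DMSO and untreated) and hold VIM, of mesenchymal cells, at 12.62, 12.52 and 12.55. Those of replicate 2 have EPCAM at 12.07, 11.93 and 12.02. In replicate 2, CHAC1 had a response of 4.45 and SLC7A11 of 2.58, DDIT4 of 2.91, MT1F of 3.09 and ELK3 of -1.04. In replicate 1 these responses were -0.13, -0.01, 0.00, 1.49 and -0.39, and CHAC1 lay at 9.93 log2 already with DMSO, where p53-null cells had 4.99 and 5.34.

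Of the 228 genes that rose in p53-null cells, 193 (84.6%) had a positive response in HCT116 replicate 2, where 54.1% of all genes did, and 154 (67.5%) in replicate 1, where 52.9% did. Of the 215 genes that fell, 188 (87.4%) had a negative response in replicate 2, against 45.5% of all genes, and 163 (75.8%) in replicate 1, against 46.8%. These shares of all genes are not matched for level. They include the 6553 genes at or below 4 log2, of which 0.107% were called and whose p53-null replicates correlated at 0.0631. The heat map of the largest changes shows most rises in HCT116 replicate 2 and few in replicate 1. A test of the difference in response, p53-null minus HCT116, called 0 genes over all 12 arrays (0.0%), with 2433 at an unadjusted p under 0.05. Without the arrays labelled HCT116 replicate 1 it called 1103 genes (5.93%), 733 higher (3.94%) and 370 lower (1.99%). That count rests on 1 set of HCT116 arrays with a spread taken from the p53-null arrays, and the difference between the lines cannot be told apart from a difference between single experiments. The 40 largest changes included MT1F (-2.07, adjusted p = 0.00425) and CMIP (0.72, adjusted p = 0.0137) among these calls, and CHAC1 had -1.52 with an adjusted p of 0.2.

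**Figure D5:**
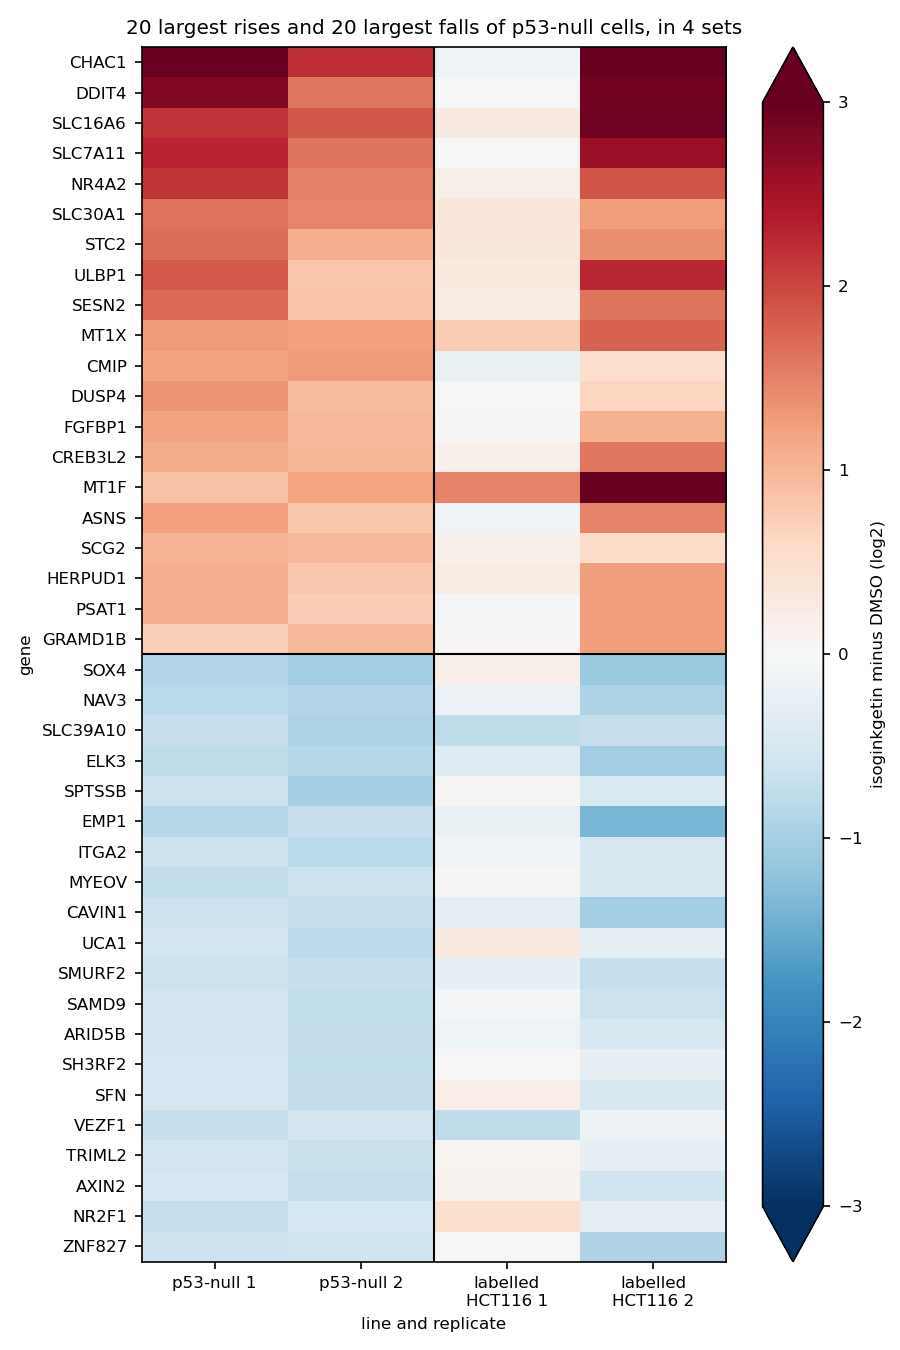
Response to isoginkgetin (colour, isoginkgetin minus DMSO in log2, saturated beyond 3) of the 20 largest rises and 20 largest falls in p53-null cells (rows), in the 2 p53-null replicates and the 2 replicates labelled HCT116 (columns). The column of HCT116 replicate 1 is pale except for a few genes such as MT1F (1.49), while that of HCT116 replicate 2 has the colours of the p53-null columns for most genes.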

How the data were processed

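The deposited log2 values of 12 Human Transcriptome Array 2.0 arrays came from Transcriptome Analysis Console 4.0 at its default settings, per the submitters' processing notes and design text; the background correction and summary methods were not given in the sources used here. Per the labels' protocols, biotin-labelled cDNA of total RNA was hybridised. Groups and replicate numbers come from the titles.

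Of 573909 exon rows, 385548 had 1 gene symbol, 23151 several and 165210 none in the platform annotation, and 2478 symbols were updated through RefSeq. Gene levels are means of at least 3 exon rows (381400 rows in all). Junction means (16732 genes) were formed alike. In the gene-level table (22411 genes) no mean was taken, and the row of a symbol with the highest mean level stood for its gene. limma 3.58.1 (R 4.3.3) fitted treatment and replicate number on the 6 p53-null arrays, with 2 residual degrees of freedom and Benjamini-Hochberg adjustment over all genes. The design text names an unpaired ANOVA, run here as an alternative. Deviations of same-numbered arrays from group means correlated at 0.903, 0.903 and 0.904, and the design text describes independent experiments, so the numbers were taken as pairs. The equal values within a replicate number bear on these correlations.

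Named genes were the 20 largest rises and 20 largest falls among called genes, fixed control genes, and called members of 39 lists (641 entries, 606 measured). The members and lists were chosen with earlier results of these data known. The fit was also run on simulated data with independent noise. Those data held no exactly equal values between treatments, so they cannot show how such values affect the fit. Alternatives changed the block, arrays, summary, filter, scaling, control and threshold. The deleted gene's level is not reported here. Rows reaching 6 log2 were chosen after values were seen. Motifs were searched in RefSeq windows from 250 bases before to 50 after the start, each motif separately and counting any window of a gene; sequences are printed on the strand of the gene.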

Additional observations from a re-analysis of the deposited data

Results flagged for a closer look

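For 3 of 102 called named genes, NOLC1, PRPF4 and SLC2A1, both p53-null replicates moved up and both HCT116 replicates moved down. The share of all genes with opposite signs is not given here, so nothing is read from this count. NOLC1, a nucleolar phosphoprotein, responded by 0.27 and 0.24 in p53-null replicates 1 and 2 and by -0.05 and -0.37 in the arrays labelled HCT116 (difference 0.464). PRPF4, a splicing factor, responded by 0.46 and 0.37 in p53-null replicates 1 and 2 and by -0.15 and -0.27 in the arrays labelled HCT116 (difference 0.621). SLC2A1, the glucose transporter GLUT1, responded by 0.61 and 0.37 in p53-null replicates 1 and 2 and by -0.27 and -0.06 in the arrays labelled HCT116 (difference 0.656). These genes were chosen for their signs, so the differences are descriptions, and no p is given for them. The test across all genes and 12 arrays called 0 genes. Without the arrays labelled HCT116 replicate 1, which lack epithelial markers, the differences were 0.626, 0.68 and 0.548, resting on 1 set of HCT116 arrays. Their calls in p53-null cells were lost in fits without 1 array: NOLC1 without isoginkgetin replicate 1 (0.275), isoginkgetin replicate 2 (0.0996), DMSO replicate 1 (0.138), DMSO replicate 2 (0.104) or either untreated array (0.0698), PRPF4 without isoginkgetin replicate 1 (0.13), isoginkgetin replicate 2 (0.0725) or DMSO replicate 1 (0.0573), SLC2A1 without isoginkgetin replicate 1 (0.102), DMSO replicate 1 (0.0748) or either untreated array (0.0636).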

How the results depend on the processing

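With 2 replicates a group and 2 residual degrees of freedom, the number of genes called depended on most choices. Isoginkgetin against DMSO called 443 genes, and the count stayed within 1.5 times of this with an intensity trend (374), quantile scaling (419) and centring (501); adding the arrays of HCT116 replicate 2 gave the same 443, since they add no degree of freedom. It was 0 without the replicate block, 0 in the plain unpaired test (356 at an unadjusted p under 0.05), 0 for the median of the exon rows, 137 on isoginkgetin and DMSO arrays only, 74 on all 12 arrays, 733 with 10 or more exon rows, 709 at a mean level of at least 6 log2, 17 on junction rows, and 6 (1 row per gene) and 3 (all rows) in the gene-level table. In both gene-level fits most rows had no measurable residual spread. The count was 712 against the mean of DMSO and untreated, 975 at an adjusted p under 0.10, and 16 with a 2-fold bound. Leaving out 1 array or 1 replicate gave 0 to 355, the 0 being the fits without replicate 1 or 2, whose spread comes from the HCT116 arrays. Isoginkgetin against untreated (399) called 0 without the replicate block, 645 genes at a level of at least 6 log2, 14 on junction rows, 6 on all 12 arrays, 0 for the median of the exon rows, 6 to 632 with 1 array left out, and 0 without replicate 1 or 2. The difference between the lines (0) was 1103 without the arrays labelled HCT116 1. DMSO against untreated called 0 under every setting run. The junction minus exon shift of 0.0186 was -0.000659 with untreated in place of DMSO and 0.00338 with quantile scaling. Among single genes, 2505 values kept direction and call, 1095 lost the call, 12 gained one and 2 reversed: IDI1 at 0.0146 for the median of exon rows (main -0.30) and IFIT1 at 0.342 on junction rows (main -0.33). Fewer samples or genes in a fit change its count by construction; otherwise the cause was not tested.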

Other observations

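Several genes outside the lists were called as well, and the following were chosen after their values were seen. CSTF3 and PCF11, both parts of the machinery that cleaves the ends of transcripts, rose by 0.96 and 0.55 and by 0.77 and 0.45 in replicates 1 and 2 (limma adjusted p = 0.0262 and 0.0441). TUBE1, the centriolar tubulin epsilon, had 7.76 and 8.00 log2 with isoginkgetin, against 7.01 and 7.28 with DMSO (mean 0.73, adjusted p = 0.00245). GFPT1 and PGM3, enzymes of the hexosamine pathway that supplies sugars for glycosylation, rose by 0.56 and 0.36, and EDEM3, which trims mannose from misfolded glycoproteins in the ER, by 0.45. PPARG, a nuclear receptor of lipid metabolism, and its target ANGPTL4 rose by 0.40 and 0.44.

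Among the falls, the phosphatases CTDSP2 and CTDSPL, which act on the tail of RNA polymerase II, had -0.54 and -0.40. SMAD3, a mediator of TGF-beta signalling, and ID2, an inhibitor of differentiation factors, fell by 0.49 and 0.49. In the arrays labelled HCT116, SMAD3 moved by -0.06 and 0.38 in replicates 1 and 2. ETS1, a transcription factor, fell by 0.45, PLK2, a polo-like kinase, by 0.46, and FERMT2, an activator of integrins, by 0.39. MT1IP and MT1JP, metallothionein pseudogenes that resemble their parent genes, had 0.41 and 0.46 and are uncertain for that reason.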
